A study of Mus musculus with 7 samples.

Results

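The immediate early genes described here are the 10 genes Fos, Fosb, Jun, Junb, Atf3, Egr1, Egr2, Egr3, Ier2 and Dusp1, taken by symbol from a table of 24964 genes measured in whole mouse uterus. The rule names the genes and uses no measured value, but the genes were chosen with earlier results of these data known. The mice were 12 weeks old and recorded in diestrus. The 3 control libraries came from Pgrcre/+ mice, which carry a Cre allele at the progesterone receptor gene, and bear the replicate numbers 1, 2 and 4. The 4 libraries called Foxl2LsL came from Pgrcre/+Foxl2LsL/+ mice, which carry the same Cre allele and a Foxl2LsL allele, and are numbered 1 to 4. Cre made from this allele is present in cells that express the progesterone receptor gene, so only part of the cells of a whole uterus would carry a change made by it. The title of the series speaks of overexpressed FOXL2, and the question addressed is how these genes compare between the genotypes.

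Immediate early genes are switched on within minutes by growth factors, hormones, stretch or stress, without new protein synthesis, and their short-lived transcripts fall again soon after. Kinase cascades reach them through serum response factor, the ternary complex factors and CREB-type factors, which bind near their start sites. FOS, FOSB, JUN, JUNB and ATF3 are basic leucine zipper proteins that pair with one another as forms of the transcription factor AP-1, the EGR proteins are zinc finger factors, and DUSP1 is a phosphatase that inactivates MAP kinases. In the rodent uterus estrogen is a classic inducer of Fos. The same genes respond to dissection and delay before tissue is frozen.

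Of the 10 genes, 1 passed the test between the genotypes: Atf3 was lower in all 4 Foxl2LsL libraries, at 1.21 ± 0.249 FPKM (SD, n = 4) against 4.65 ± 1.61 FPKM (SD, n = 3) in controls. FPKM are fragments scaled to the length of the gene and to the total of the library, so they may be compared between genes. The test was limma on log2(FPKM + 1), adjusted by Benjamini-Hochberg over 13337 genes, and a gene passed at an adjusted p under 0.05. Over all tested genes 40.6% passed, 23.9% lower and 16.7% higher in Foxl2LsL libraries, so 1 of 10 lay below the background share. The sets are not alike, since Fosb, Egr2 and Egr3 averaged under the 1 FPKM asked of the other tested genes. The log2(FPKM + 1) scale understates changes at such low values. Among the 7 members above that level, Atf3 alone passed. The groups did not overlap for 2 of the 10 genes, Atf3 and Fosb, where 47.6% of all tested genes had groups that did not overlap. The median difference of the 10 genes was -0.14 on the log2(FPKM + 1) scale, and that of all tested genes was -0.05. An unadjusted limma p under 0.05 was found for 2 of the 10. Adjustment never lowers a p-value, so at least 40.6% of all tested genes were also under 0.05 before it. Whole tissue was sequenced, so fewer cells that make a transcript and less of it per cell cannot be told apart.

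The promoters of the genes on which the comparison turned are shown first, for Atf3 and Fosb, which were lower in every Foxl2LsL library, and for Fos and Jun, whose order depended on 1 control. Each is the stretch of 150 bases before the start site, 5′ to 3′ on the strand of the gene, from RefSeq on GRCm38.p6. Capitals mark the letters TGACGT or their reverse complement, the core of the cyclic AMP response element.
Atf3, chr1:191183334-191183483, minus strand: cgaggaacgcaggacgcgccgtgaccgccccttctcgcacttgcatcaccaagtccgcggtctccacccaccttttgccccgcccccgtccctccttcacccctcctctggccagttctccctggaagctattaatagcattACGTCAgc
Fosb, chr7:19310046-19310195, minus strand: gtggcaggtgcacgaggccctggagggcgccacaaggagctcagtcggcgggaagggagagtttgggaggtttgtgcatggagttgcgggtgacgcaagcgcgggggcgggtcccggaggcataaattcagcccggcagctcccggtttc
Fos, chr12:85473740-85473889, plus strand: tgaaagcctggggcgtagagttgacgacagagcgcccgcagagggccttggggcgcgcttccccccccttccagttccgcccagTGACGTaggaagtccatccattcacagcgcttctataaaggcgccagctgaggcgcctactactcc
Jun, chr4:95052223-95052372, minus strand: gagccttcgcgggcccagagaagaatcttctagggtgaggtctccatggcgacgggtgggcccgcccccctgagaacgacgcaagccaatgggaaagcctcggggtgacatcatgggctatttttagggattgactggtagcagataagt

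Promoters of 7 of the 10 genes matched by symbol, those of Atf3, Jun, Fosb, Junb, Egr2, Fos and Dusp1, in 11 windows because Egr2 has several start sites. In the 250 bases before the start, searched on both strands, TGACGT was found for 4 of the 7 genes (Atf3, Egr2, Fos and Dusp1). It was in 6 of 11 windows, but the Egr2 windows from starts 67537869, 67537870 and 67537930 held the same site. TGACGT was found in 6.47% of 32851 promoter windows of that length, a share of windows and not of genes. The RefSeq start of Atf3 lies inside the longer gene that GENCODE gives. The match of Atf3 began 8 bases before its start site and that of Fos 66 bases before. The CArG box, the site of serum response factor, was found for Egr2 only among the 7, and in 1.47% of all windows. Only its exact form within these 250 bases was searched, so other forms and sites further upstream were not looked for. The letters TATAAA were found for Fos only, and in 12.4% of all windows. Whether any of these motifs bears on the difference between the genotypes was not tested.

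ATF3 is a stress-inducible member of the ATF/CREB family that can repress its own gene and others as a homodimer. Atf3 (chromosome 1, 191170296 to 191218039, minus strand, GRCm38, annotation GENCODE M21) had levels of 6.21, 4.75 and 2.99 FPKM in controls 1, 2 and 4. Foxl2LsL libraries 1 to 4 held 1.43, 1.41, 0.920 and 1.09 FPKM. The lowest control lay above the highest Foxl2LsL library, and the ratio of the group means was 3.84. The difference was -1.32 on the log2(FPKM + 1) scale (SE 0.20, 95% interval -1.78 to -0.86; limma, Benjamini-Hochberg adjusted p 0.00218). The two-sided exact permutation p over 35 assignments of the genotype was 0.0571, the smallest this design allows. Between 110 and 778 fragments lay on Atf3 in a library. The call held in all 18 alternative analyses, with an adjusted p (limma, Benjamini-Hochberg) of 0.000396 to 0.0171, and the largest difference, -1.90, came from limma-voom on fragments recovered from the table.

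FOSB is a partner of JUN proteins whose gene responds to the same signals as Fos. Fosb (chromosome 7, 19302696 to 19310051, minus strand, GRCm38) was at 1.84, 0.488 and 0.40 FPKM in controls 1, 2 and 4. Foxl2LsL libraries 1 to 4 held 0.162, 0.227, 0.228 and 0.197 FPKM. All 4 Foxl2LsL libraries lay below all 3 controls, and control 1 lay far above the other 2. Controls averaged 0.910 ± 0.808 FPKM (SD, n = 3) and Foxl2LsL libraries 0.204 ± 0.0312 FPKM (SD, n = 4), a ratio of 4.47, or a difference of -0.59 on the log2(FPKM + 1) scale, which understates a change at such low values. The gene did not pass (SE 0.24; limma, Benjamini-Hochberg adjusted p 0.0890; two-sided exact permutation p 0.0571). It passed in limma-voom on the recovered fragments (log2 difference -1.80, adjusted p 0.0362, Benjamini-Hochberg) and without control 4 (-0.77, limma adjusted p 0.0380), and without control 1 the difference shrank to -0.26 (limma adjusted p 0.157). As few as 39 fragments lay on Fosb in a library, a counting error of 16.0% (coefficient of variation).

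FOS, the founding partner of JUN in AP-1, showed no such fall. Fos (chromosome 12, 85473890 to 85477273, plus strand, GRCm38) was at 7.97, 2.38 and 2.84 FPKM in controls 1, 2 and 4. Foxl2LsL libraries 1 to 4 held 8.29, 4.14, 5.08 and 7.11 FPKM. Controls 2 and 4 lay below all Foxl2LsL libraries, and control 1 lay among the highest. Controls averaged 4.40 ± 3.10 FPKM (SD, n = 3) and Foxl2LsL libraries 6.15 ± 1.89 FPKM (SD, n = 4), a difference of 0.51 on the log2(FPKM + 1) scale that was smaller than the spread of the controls (SE 0.36, 95% interval -0.31 to 1.34; limma, Benjamini-Hochberg adjusted p 0.282; two-sided exact permutation p 0.286). Without control 1 the difference was 0.95 and passed (limma, Benjamini-Hochberg adjusted p 0.0213), and the adjusted p ran from 0.0213 to 0.650 over the 18 alternatives.

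JUN can pair with itself or with FOS proteins, and Jun had the highest mean of the 10 genes in both genotypes, although Ier2 exceeded it in control 4. Jun (chromosome 4, 95049034 to 95052222, minus strand, GRCm38) was at 59.2, 31.4 and 24.5 FPKM in controls 1, 2 and 4. Foxl2LsL libraries 1 to 4 held 45.0, 47.7, 43.8 and 40.5 FPKM. The 4 Foxl2LsL libraries lay close together, between control 1 above and controls 2 and 4 below. The difference was 0.30 on the log2(FPKM + 1) scale (SE 0.26, 95% interval -0.30 to 0.90; limma, Benjamini-Hochberg adjusted p 0.387; two-sided exact permutation p 0.40). Without control 1 it was 0.65 and passed (limma, Benjamini-Hochberg adjusted p 0.00662), and without control 4 it was 0.03 (limma adjusted p 0.912), so its size rested on single controls.

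JUNB, a JUN relative that often restrains JUN, had the same order in the controls. Junb (chromosome 8, 84974484 to 84978718, minus strand, GRCm38) was at 21.4, 14.4 and 12.8 FPKM in controls 1, 2 and 4. Foxl2LsL libraries 1 to 4 held 24.5, 14.6, 23.8 and 25.0 FPKM. Foxl2LsL library 2 lay with controls 2 and 4, and the other 3 lay above every control. The difference was 0.42 on the log2(FPKM + 1) scale (SE 0.23, 95% interval -0.11 to 0.95; limma, Benjamini-Hochberg adjusted p 0.178; two-sided exact permutation p 0.114). It passed without Foxl2LsL library 2 (0.59; limma, Benjamini-Hochberg adjusted p 0.0404). Junb overlaps Prdx2 on the opposite strand by 351 bases in GENCODE M21, and Prdx2 was at 134 FPKM on average. The use of strand in counting is not given in the sources used here, so reads of the overlap cannot be assigned. The same holds for Jun and its antisense gene Junos, and for Dusp1 and Ergic1.

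**Figure D1:**
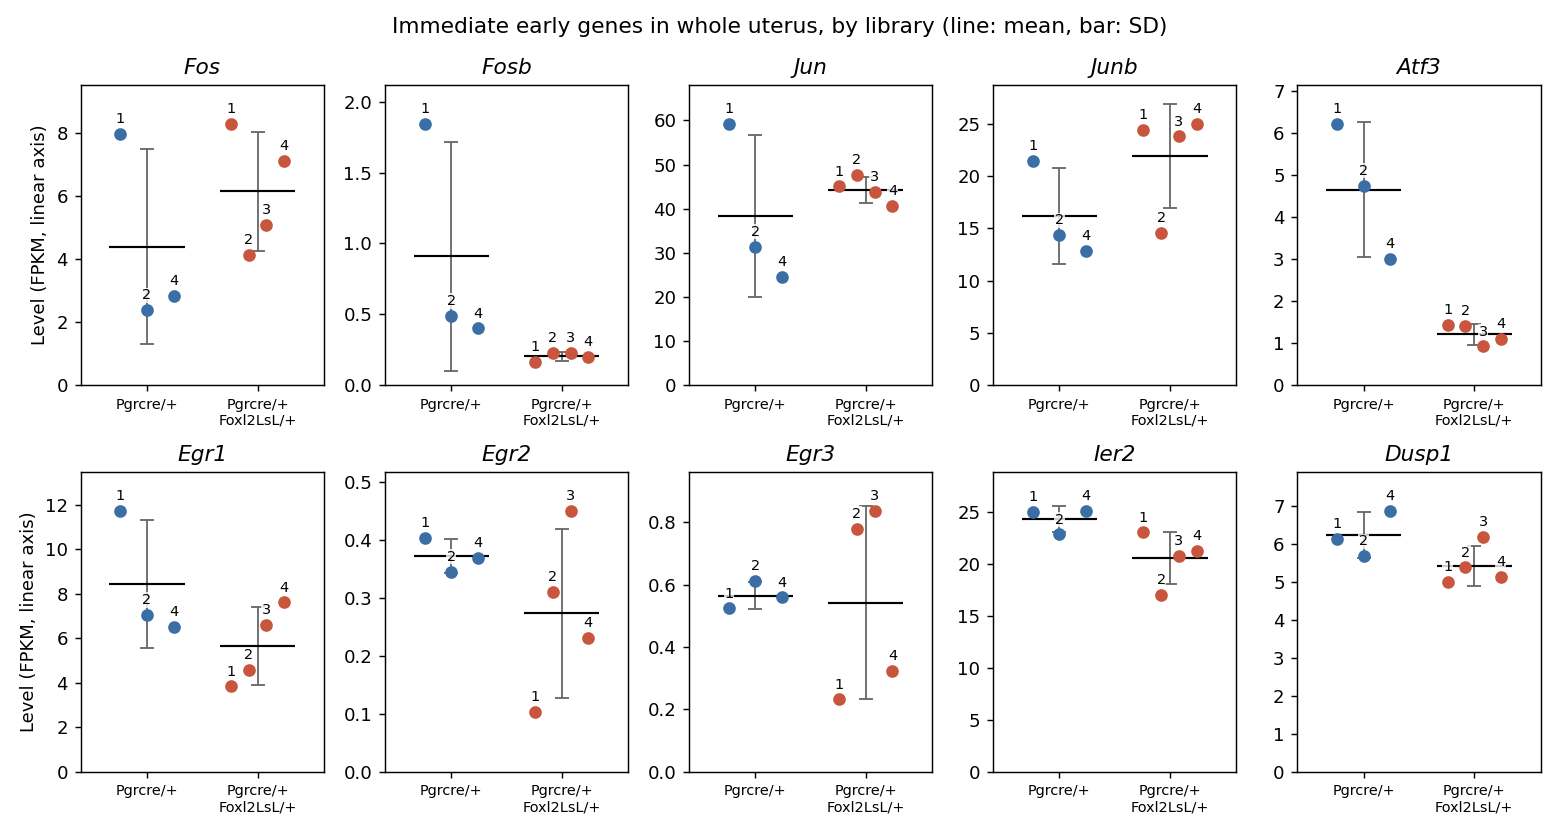
Level of each of the 10 genes in FPKM (linear axis from 0, scaled per gene) in the 3 Pgrcre/+ and 4 Pgrcre/+Foxl2LsL/+ libraries. Points are libraries labelled with their replicate number, lines are group means and bars SD. Atf3 and Fosb have groups that do not overlap, and control 1 is the highest control for Fos, Fosb, Jun, Junb, Atf3, Egr1 and Egr2.

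The EGR genes encode zinc finger factors that bind GC-rich sites, and none of the 3 passed. Egr1 was at 11.7, 7.05 and 6.50 FPKM in controls 1, 2 and 4, and at 3.84, 4.58, 6.59 and 7.61 FPKM in Foxl2LsL libraries 1 to 4. Its groups overlapped because Foxl2LsL libraries 3 and 4 lay within the range of the controls. The difference was -0.50 on the log2(FPKM + 1) scale (SE 0.25, 95% interval -1.08 to 0.08; limma, Benjamini-Hochberg adjusted p 0.148; two-sided exact permutation p 0.286). Without control 1 it was -0.26 (limma adjusted p 0.412).

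Egr2 and Egr3 were near the bottom of the range. Egr2 was at 0.404, 0.346 and 0.370 FPKM in controls 1, 2 and 4, and at 0.103, 0.311, 0.451 and 0.231 FPKM in Foxl2LsL libraries 1 to 4. Egr3 was at 0.524, 0.612 and 0.559 FPKM in controls 1, 2 and 4, and at 0.232, 0.779, 0.837 and 0.323 FPKM in Foxl2LsL libraries 1 to 4. For both genes the 3 controls were close together and the Foxl2LsL libraries spread to either side of them. The highest Foxl2LsL library was 4.38 times the lowest for Egr2 and 3.61 times for Egr3, against 1.17 times among controls for both. The differences were -0.12 (limma adjusted p 0.522) and -0.04 (limma adjusted p 0.864) on the log2(FPKM + 1) scale, and the direction of Egr3 turned when Foxl2LsL library 1 or 4 was left out and after median centring. Between 20 and 81 fragments lay on Egr2 in a library, so counting error reached 22.4% there. Foxl2LsL library 1 had the lowest Egr1, Egr2 and Egr3 of all 7 libraries and the highest Fos.

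The remaining pair, Ier2, a short gene whose product is nuclear, and Dusp1, varied little in level. Ier2 was at 24.9, 22.8 and 25.1 FPKM in controls 1, 2 and 4, and at 23.0, 17.0, 20.8 and 21.3 FPKM in Foxl2LsL libraries 1 to 4. Foxl2LsL library 1 just exceeded control 2, so the groups overlapped. The difference was -0.24 on the log2(FPKM + 1) scale (SE 0.10, 95% interval -0.48 to 0.00; limma, Benjamini-Hochberg adjusted p 0.102; two-sided exact permutation p 0.114), and it passed once each library was rescaled to a common sum (-0.26, limma adjusted p 0.0426). Dusp1 was at 6.13, 5.67 and 6.87 FPKM in controls 1, 2 and 4, and at 4.998, 5.38, 6.17 and 5.14 FPKM in Foxl2LsL libraries 1 to 4. Only Foxl2LsL library 3 reached the range of the controls. The difference was -0.17 (SE 0.09; limma, Benjamini-Hochberg adjusted p 0.184).

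Levels were compared between the 10 genes per length. In controls the order of the means was Jun (38.3 FPKM), Ier2 (24.3), Junb (16.2), Egr1 (8.43), Dusp1 (6.22), Atf3 (4.65), Fos (4.40), Fosb (0.910), Egr3 (0.565) and Egr2 (0.373). The ranges of the 3 controls overlapped between Jun and Ier2, along the run from Egr1 to Fos, and between Fosb and Egr3, so those neighbours are not ordered. In Foxl2LsL libraries the order was Jun (44.3 FPKM), Junb (21.9), Ier2 (20.5), Fos (6.15), Egr1 (5.65), Dusp1 (5.42), Atf3 (1.21), Egr3 (0.543), Egr2 (0.274) and Fosb (0.204). There the ranges overlapped between Junb and Ier2, along the run from Fos to Dusp1, and from Egr3 to Fosb. Compared within each Foxl2LsL library, however, Egr3 lay above Egr2 and above Fosb every time. Atf3 thus stood level with Fos and Dusp1 in controls and below both, with no overlap, in Foxl2LsL libraries.

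Ratios between AP-1 genes were taken within each library. The ratio of Atf3 to Jun was 0.105, 0.151 and 0.122 in controls 1, 2 and 4, and 0.0317, 0.0295, 0.0210 and 0.0268 in Foxl2LsL libraries 1 to 4. The ratio of Fosb to Fos was 0.231, 0.205 and 0.141 in controls 1, 2 and 4, and 0.0196, 0.0548, 0.0449 and 0.0277 in Foxl2LsL libraries 1 to 4. Neither ratio overlapped between the genotypes, and control 1, which had the highest level of all 4 genes among controls, did not stand apart in either. The ratio of Jun to Fos ran from 7.42 to 13.2 in controls and from 5.43 to 11.5 in Foxl2LsL libraries and overlapped. That of Junb to Jun overlapped too, at 0.362 to 0.525 in controls and 0.305 to 0.616 in Foxl2LsL libraries. These ratios were chosen after the values were seen, with the levels of Atf3 and Fosb already known not to overlap, and were not tested.

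Spread between libraries of 1 genotype was wide for some of the 10 genes and narrow for others. Control 1 was the highest control for 7 of the 10 genes, at 3.05 times the mean of controls 2 and 4 for Fos, 4.15 times for Fosb and 2.12 times for Jun. For Ier2, Dusp1 and Egr3 it was 1.04, 0.978 and 0.895 times that mean. Among Foxl2LsL libraries no library was highest for more than 4 genes. The SD within groups, on the log2(FPKM + 1) scale after removing group means, was 0.57 for Fos, 0.41 for Jun, 0.40 for Egr1, 0.36 for Junb and 0.36 for Fosb, and these 5 lay at or above the 90.1 percentile of all tested genes. Fos lay at the 97.4 percentile. Atf3, at 0.30, lay at the 85.3 percentile and Egr3, at 0.23, at the 76.0 percentile. Dusp1, at 0.12, lay at the 36.6 percentile, Egr2, at 0.13, at the 43.8 percentile and Ier2, at 0.14, at the 50.8 percentile. This scale understates spread at low values, and for Egr2 the highest Foxl2LsL library was 4.38 times the lowest.

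**Figure D2:**
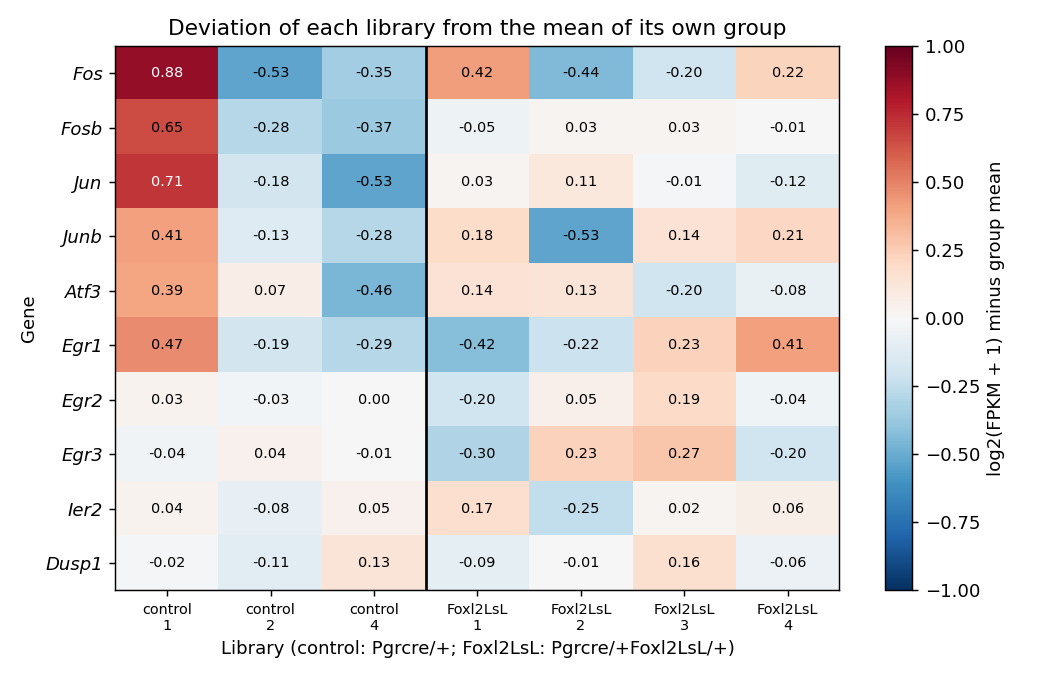
Deviation of each library from the mean of its own group, in log2(FPKM + 1), for the 10 genes (rows) and 7 libraries (columns). Control 1 stands at 0.88 for Fos, 0.65 for Fosb and 0.71 for Jun but near 0 for Egr2, Egr3, Ier2 and Dusp1, while Foxl2LsL library 1 is high for Fos and low for the 3 Egr genes.

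Which of the 10 genes passed changed when control 1 was left out. Without it Fos and Jun passed as higher and Atf3 as lower, 3 of 10, where 1 passed with all libraries. Over all tested genes 36.6% passed without control 1, so 3 of 10 lay near the background share. All 4 Foxl2LsL libraries lay above both remaining controls for Fos, Jun and Junb, at 2.36, 1.59 and 1.61 times their mean, and below both for Atf3 and Fosb, at 0.313 and 0.458 times their mean. Genes whose groups do not overlap with all libraries cannot overlap once a control is left out, and they made 47.6% of all tested genes. The share without control 1 is therefore at least that, and the genes named here are not set apart by it. The labels name no batch, dissection time or delay by which control 1 could be set apart.

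**Figure D3:**
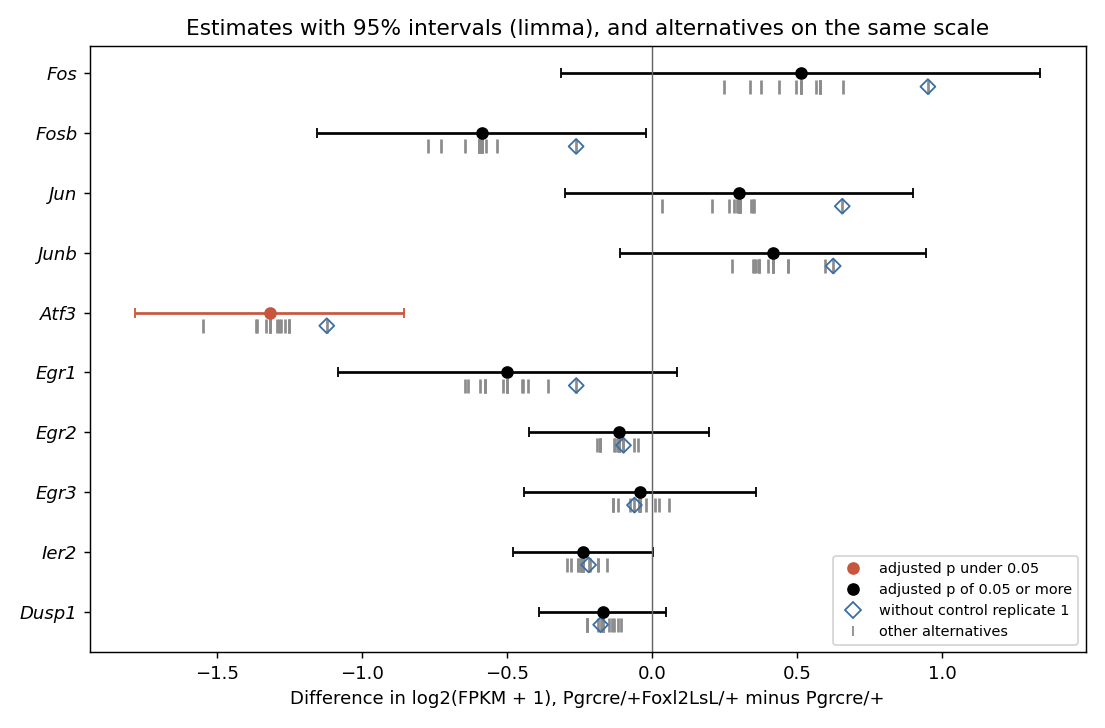
Difference of each gene between the genotypes in log2(FPKM + 1), with 95% intervals from limma (circles), and below each the alternatives on the same scale (bars), among them the analysis without control 1 (diamonds). Atf3 is the gene that passed, and the diamonds of Fos, Fosb, Jun, Junb, Atf3 and Egr1 lie at the right end of their own alternatives.

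The libraries themselves differed in single marker genes of other tissue, and whether such tissue was carried over was not tested. Ovgp1, an oviduct secretory gene, was at 291 FPKM in control 2 and at 1.65 to 19.7 FPKM in the other 6 libraries. Adipoq, made by fat cells, was listed at 0 in control 1 and was at 0.736 and 9.23 FPKM in controls 2 and 4 and at 0.409 to 27.3 FPKM in Foxl2LsL libraries. All 6 globin genes looked for were listed at 0 in every library, so blood content cannot be read from them. The difference of Atf3 was -1.29 without control 2 and -1.122 without control 1 and passed in both (limma, Benjamini-Hochberg adjusted p 0.0117 and 0.00483). Foxl2 itself was at 14.4 ± 4.32 FPKM (SD, n = 3) in controls and 14.7 ± 1.86 FPKM (SD, n = 4) in Foxl2LsL libraries (log2 difference 0.06; limma, Benjamini-Hochberg adjusted p 0.818), so it did not mark the genotype and the directions here rest on the labels. The uterine genes Pgr, Esr1, Hoxa10 and Hoxa11 were at 10.4 FPKM or more in every library, and 3 of these 4 passed. Hoxa10 fell from a mean of 77.9 to 25.4 FPKM and Hoxa11 from 51.9 to 12.0 FPKM, while Esr1 rose from 39.8 to 58.2 FPKM (limma, Benjamini-Hochberg adjusted p 0.00835, 0.00286 and 0.00662).

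Some markers of cell types also differed between the genotypes, where 40.6% of all tested genes passed. The summed levels of the smooth muscle and epithelial markers overlapped between the genotypes. Of 2 uterine gland markers measured, 2 were lower, and their summed level was 26.4 to 38.0 FPKM in controls and 4.49 to 6.87 FPKM in Foxl2LsL libraries. Of 4 endothelial markers 3 were lower (sums 64.1 to 99.9 and 46.5 to 50.3 FPKM), and of 5 leukocyte markers tested 2 were higher (sums 25.9 to 37.1 and 39.9 to 77.5 FPKM). Of 6 smooth muscle markers 2 were higher (sums 827 to 1643 and 1468 to 1913 FPKM), and of 5 epithelial markers 1 was higher (sums 528 to 1094 and 864 to 1166 FPKM). Of 5 stromal markers 1 was higher and 1 lower (sums 898 to 1329 and 1395 to 1590 FPKM). The stromal sum was led by Dcn, with means of 411 FPKM in controls and 978 FPKM in Foxl2LsL libraries. Lum also had a higher mean, but Vim, Pdgfra and Col1a1 had lower means, and the median difference of the 5 was -0.29. The part of these shifts in the fall of Atf3 was not tested.

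Other members of the AP-1 family divided. Of 12 listed, 11 were tested, 2 were higher and 1 lower. The shares over all tested genes, 16.7% higher and 23.9% lower, stand beside the counts of this and each later list. Jdp2, a repressor that binds AP-1 sites, rose by 1.61 on the log2(FPKM + 1) scale (SE 0.12; limma, Benjamini-Hochberg adjusted p 0.000202). It was at 4.64, 5.56 and 6.10 FPKM in controls 1, 2 and 4 and at 21.2, 16.1, 17.05 and 19.95 FPKM in Foxl2LsL libraries 1 to 4, and control 1 did not stand apart. Batf3, known for its role in dendritic cells, fell by 0.96 and Mafk, a small MAF protein, rose by 0.35 on the same scale, a call that Mafk lost with the replicate number as a block (limma adjusted p 0.0744). Without control 1, 2 of the list were lower. Jund and Fosl2, the most abundant of those that did not pass, differed by -0.37 and 0.35 (limma adjusted p 0.226 and 0.305). Jund was highest in control 1, at 80.2 FPKM against 33.1 to 52.2 FPKM in the other 6 libraries. Fosl1 was at most 0.054 FPKM and was not tested. NAB proteins hold EGR factors back, and Nab1 and Nab2 did not pass (-0.16 and -0.01; limma adjusted p 0.158 and 0.976).

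A list of 39 further immediate early genes was read beside the 10. Of 37 tested, 10 were higher and 11 lower, where 16.7% and 23.9% of all tested genes were. Their median difference was 0.03 on the log2(FPKM + 1) scale. The largest rises were those of Klf4, a zinc finger factor of epithelia, from 12.9 ± 0.965 to 67.8 ± 20.3 FPKM, and of Ier3, a survival gene, from 15.8 ± 2.13 to 74.6 ± 28.5 FPKM (SD, n = 3 and 4). Their differences were 2.26 and 2.11 (limma, Benjamini-Hochberg adjusted p 0.000532 and 0.00111). Gadd45b, which binds stress kinases, was at 14.6, 6.18 and 3.79 FPKM in controls 1, 2 and 4 and at 24.3, 17.9, 23.0 and 24.8 FPKM in Foxl2LsL libraries 1 to 4, a rise of 1.52. Ier5 fell from 13.9 ± 3.97 to 5.34 ± 0.851 FPKM, a difference of -1.21. Gadd45g and Mcl1, the most abundant that did not pass, differed by 0.01 and 0.13 (limma adjusted p 0.979 and 0.291). Without Foxl2LsL library 4, 7 of the list were lower. Whether the share that passed differs between the list and the 10 genes was not tested.

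**Figure D4:**
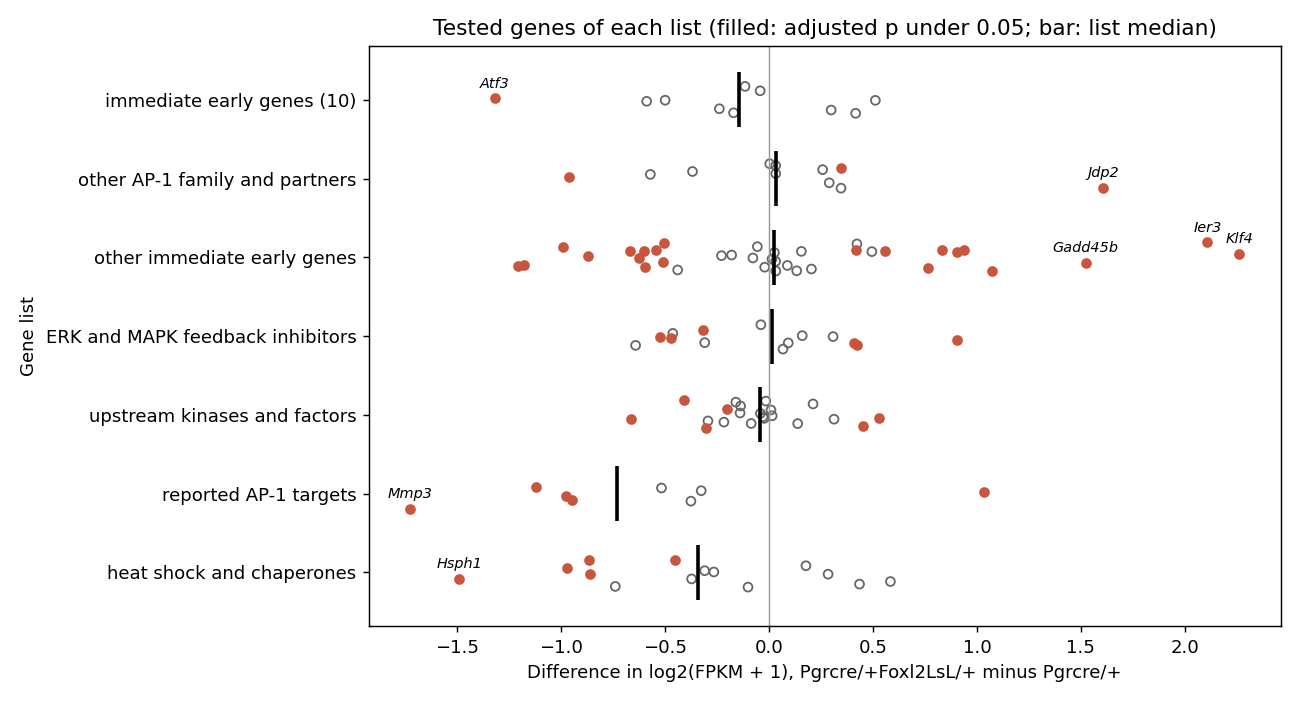
Difference between the genotypes in log2(FPKM + 1) for the tested genes of 7 lists (points; filled where the adjusted p was under 0.05) with the median of each list (bar). The 10 immediate early genes have 1 filled point, Atf3, while the other immediate early genes have filled points on both sides.

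The inhibitors that close the loop on ERK and other MAP kinases went both ways, 3 higher and 3 lower of 14 tested, with a median of 0.01. Spry2, a Sprouty inhibitor of receptor tyrosine kinase signals, rose by 0.90 and Spred1 by 0.42, while the phosphatase genes Dusp16 and Dusp7 fell by 0.53 and by 0.47 on the log2(FPKM + 1) scale. Spred1 lost its call without control 4 and without Foxl2LsL library 3 (limma adjusted p 0.0543 and 0.0554). Without Foxl2LsL library 3, 1 of the list was higher. Spry1 and Spred2 did not pass (0.31 and 0.16; limma adjusted p 0.270 and 0.621), but Spry1 passed without control 1 (0.53; limma adjusted p 0.0487). Among 21 kinases and factors upstream of these genes, 2 were higher and 4 lower, with a median of -0.04. Braf rose by 0.45 and Rps6ka1 by 0.53, and Mapk7, which encodes ERK5, fell by 0.67 and Map2k2 by 0.41. Mapk3, which encodes ERK1, did not pass (0.21; limma adjusted p 0.133), but it passed without Foxl2LsL library 2 (0.29; limma adjusted p 0.0311). It also passed after quantile normalization (0.28, limma adjusted p 0.0177). The groups of Rps6ka1 overlapped, and over the 18 alternatives 0 to 4 of this list were higher and 2 to 4 lower. With the replicate number as a block 0 were higher, since Braf and Rps6ka1 lost their calls (limma adjusted p 0.0696 and 0.126). Rps6ka1 also lost its call without control 2 or 4, without Foxl2LsL library 1, 3 or 4, and with no filter on level. Its limma adjusted p with no filter was 0.0661. Map2k2 lost its call without control 1 or Foxl2LsL library 3.

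Of 9 genes often reported as AP-1 targets, 8 were tested, 4 were lower and 1 higher, with a median of -0.73. Mmp3, a matrix protease, was at 6.35, 5.89 and 6.32 FPKM in controls 1, 2 and 4 and at 0.882, 1.33, 1.54 and 1.004 FPKM in Foxl2LsL libraries 1 to 4, a difference of -1.72 (limma, Benjamini-Hochberg adjusted p 0.000163). Vegfa, an angiogenic factor, fell by 1.119 and Plaur, the urokinase receptor, by 0.98, while Mmp9 rose by 1.04. Ccnd1 and Plau did not pass (-0.52 and -0.38; limma adjusted p 0.0863 and 0.178), but Ccnd1 passed without control 4 (-0.78; limma adjusted p 0.00503).

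Heat shock genes, which respond to handling and to temperature, were lower in 5 of 14 and higher in 0 of 14, with a median of -0.34. Hspe1 and Hspd1, the mitochondrial chaperonin pair, fell by 0.97 and by 0.86, and Hsp90aa1 by 0.87. Hsph1 was at 69.6, 69.7 and 28.7 FPKM in controls 1, 2 and 4 and at 25.8, 31.6, 9.36 and 12.9 FPKM in Foxl2LsL libraries 1 to 4, and despite its fall of 1.49 (limma, Benjamini-Hochberg adjusted p 0.0373) the groups overlapped. Hsph1 lost its call without control 1 or 2 and without Foxl2LsL library 3 or 4 (limma adjusted p 0.0824 to 0.121). It also lost it with no filter on level (limma adjusted p 0.0654). Without control 1, 3 of the list were higher, where 0 were with all libraries. Hspa8 and Hspb1 did not pass (-0.74 and 0.28; limma adjusted p 0.0759 and 0.0906). The order of the controls differed within the list. Hspa8 was at 635, 699 and 349 FPKM in controls 1, 2 and 4. The inducible Hspa1a was at 10.8, 3.77 and 2.65 FPKM and Hspa1b at 29.3, 11.9 and 9.23 FPKM in the same controls, and Dnaja1 and Dnajb1 were also highest in control 1, as Jun was; these 4 were chosen after their values were seen. In Foxl2LsL libraries Hspa1a was at 5.56 to 8.74 FPKM and Hspa1b at 18.1 to 31.0 FPKM, and neither passed (limma adjusted p 0.378 and 0.225). Whether the levels of Fos and Jun in control 1 share a source with these genes was not tested. Hspa8 passed without control 4 and Hspb1 without control 1 (limma, Benjamini-Hochberg adjusted p 0.0124 and 0.0152). With the replicate number as a block Hspa8 passed as well (limma adjusted p 0.0281).

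Likeness to the 10 genes was measured as the mean absolute gap, over the 7 libraries, between a gene's log2(FPKM + 1) less its group mean and the median of the 10 genes on that scale. Among 1903 candidates outside the lists with a within-group SD of at least 0.3, the closest 5 were Ocln (0.0800), Gm266 (0.0804), Me3 (0.0832), Agrn (0.0848) and Mannr (0.0866). Ocln, a tight junction gene, was at 20.2, 11.4 and 9.23 FPKM in controls 1, 2 and 4 and at 13.7 to 15.5 FPKM in Foxl2LsL libraries. Agrn, which encodes agrin, was at 71.9, 48.1 and 36.2 FPKM in controls 1, 2 and 4 and at 36.9 to 40.8 FPKM in Foxl2LsL libraries. Their order in the controls follows from how they were chosen.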

How the data were processed

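RNA from 7 whole uteri was extracted with TRIzol, per the labels' protocols. STAR 2.5.2b, featureCounts 1.5.0-p1 (Subread), DESeq2 1.12.4 and build mm10 are named in the submitters' processing notes. The authors deposited FPKM per library, and, per the file headers, the length of each gene; annotation and filters are not given in the sources used here. FPKM times length fell on whole multiples of a step (100% of 1646 to 1819 low values per library within 0.1), giving denominators of 47800000 to 67300000 fragments, and counting errors quoted here cover counting only. Groups came from the labels. Separate animals are not stated, so p-values measure the spread between these libraries.

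log2(FPKM + 1) was compared with limma 3.58.1 in R 4.3.3 (intensity trend). The test covered genes averaging 1 FPKM or more, and 7 of the 10 members passed this filter; Fosb, Egr2 and Egr3 were kept despite it. The step was tested on simulated data. Exact permutation p-values are two-sided. The members and lists were chosen with earlier results of these data known. All members were named, and from each list up to 4 genes past the threshold with the largest change and up to 2 abundant others; 1 gene that this rule names is not reported here, markers are given as sums, and other genes were chosen after their values were seen. Both genotypes have libraries numbered 1, 2 and 4, and the labels do not say that a number marks paired animals. Alternatives changed scaling, pseudocount, filter, moderation, test and libraries.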

Additional observations from a re-analysis of the deposited data

Results flagged for a closer look

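Junb in Foxl2LsL library 2, at 14.55 FPKM, lay far from the other 3 libraries of its group, by Dixon's criterion on log2(FPKM + 1). It was 1 of 10 groups of 4 libraries examined, and chance marks about 1 in 20 such groups. Groups of 3 controls were not examined this way, so control 1 was not.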

How the results depend on the processing

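Results were recomputed under 18 alternatives, 7 of which left out 1 library each. Atf3 passed in all 18. The count of the 10 genes that passed was 2 after rescaling to a common sum (Ier2 added) and 2 with limma-voom on recovered fragments (Fosb added), against 1, and 1 to 3 across the fits that left out a library: 3 without control 1 (Fos and Jun added), 2 without control 4 (Fosb added) and 2 without Foxl2LsL library 2 (Junb added). In these fits 5305, 5385, 4883, 5329 and 4836 of the 13337 tested genes passed, in the order given. Why the counts changed was not tested.

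With a replicate block on libraries 1, 2 and 4, 3242 genes passed, against 5409, and 3977 passed on those 6 libraries without it; 1 of the 10 genes passed. Same-numbered deviations correlated at 0.228, -0.0306 and -0.112 for numbers 1, 2 and 4, so the numbers were not taken as pairs; control 1 correlated best with its own number, controls 2 and 4 did not.

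Differences near 0 turned direction, the cause was not tested, and none of these passed. Egr3 was 0.00906 after median centring and -0.134 to 0.0583 across the fits without a library, Gadd45g -0.00466 after rescaling and -0.33 to 0.46, Spred2 -0.0509 to 0.34 and Foxl2 -0.10 to 0.28. Nab2 was 0.0457 after median centring, 0.0456 after quantile normalization, 0.0836 with the replicate block and without it on the same 6 libraries, and -0.0797 to 0.0837 without a library. Of 37 other named genes 6 lost a call in at least 1 alternative (Hsph1, Rps6ka1, Map2k2, Mafk, Braf and Spred1) and 5 gained one (Ccnd1, Hspa8, Hspb1, Mapk3 and Spry1). Counting limits Egr2, Egr3 and Fosb most.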

Other observations

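Genes of the integrated stress response, a set in which ATF3 is placed downstream of ATF4, were looked up after the values of Atf3 were seen. Of 8 genes, 7 were tested, 2 were lower and 0 higher (limma, Benjamini-Hochberg adjusted p), with a median difference of -0.07 on the log2(FPKM + 1) scale. Among all tested genes 23.9% were lower and 16.7% higher. Asns, asparagine synthetase, was at 11.2, 14.4 and 16.8 FPKM in controls 1, 2 and 4 and at 7.98, 6.22, 6.67 and 6.96 FPKM in Foxl2LsL libraries 1 to 4, a fall of 0.92. Sesn2 fell by 0.82 and its groups did not overlap. Atf4 and Ddit3 did not pass (-0.19 and -0.07; limma adjusted p 0.244 and 0.848). Ddit3 was at 26.8, 19.5 and 11.3 FPKM in controls 1, 2 and 4, the same order as Atf3. Ppp1r15a was at 7.35 to 7.91 FPKM in controls and 8.07 to 10.97 FPKM in Foxl2LsL libraries and did not pass (0.28; limma adjusted p 0.0945).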
